A study of Mus musculus with 3 samples.

Results

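Myeloid C-type lectin receptors were followed in synovial cell cultures made from D1BC mice with arthritis and given CTLA-4-Ig, hIgG or vehicle. The group held 10 of the 19321 named genes on the array, namely Clec4a1, Clec4a2, Clec4a3, Clec4d, Clec4e, Clec4n, Clec5a, Clec7a, Clec10a and Clec12a, and each was read by 1 probe. They were chosen by symbol, and the group was taken up because the signal of Clec4a3 was low on the CTLA-4-Ig array against both controls, so that pattern is a description and no finding. D1BC mice carry B7.1 (CD80) under the rat type II collagen promoter and enhancer on a DBA/1 background, which places the transgene in joint cells, and all cultures came from mice whose arthritis had been induced with bovine type II collagen. Abatacept, the CTLA-4-Ig used here, joins the extracellular part of CTLA-4 to a modified human IgG1 Fc. Synovial cells from the inflamed joints received CTLA-4-Ig, hIgG or vehicle for 48 h, and 1 array was run per condition. The sample titles give the dose of each protein as 100 µg. The methods give that amount per ml of medium, and the treatment notes give another unit, so the dose is uncertain. The labels give neither age nor sex, and whether the cultures shared their mice is not given in the sources used here.

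The labels call the cells primary fibroblast-like synoviocytes, and the marker genes showed more than 1 cell type. All 12 fibroblast-like synoviocyte markers were detected on all 3 arrays, and so were all 14 macrophage markers, with Lyz2 at 32020 after CTLA-4-Ig, 28780 after hIgG and 27290 after vehicle. Of the neutrophil markers S100a9, Mpo, Cxcr2 and Ltf were detected on no array, and of the dendritic cell markers Flt3, Xcr1 and Ccr7 were detected on none. The 5 detected neutrophil markers summed to 119 to 129 and the 4 detected dendritic cell markers to 56.9 to 75.6 per array. In such mixed cultures fewer cells of a type and less RNA per cell cannot be told apart. Between 19102 and 19710 of 23473 probes were detected per array. With 1 array per condition there was no replicate error, and ratios below are given without a test. As a scale, the log2 ratio of hIgG over vehicle had an SD of 0.17 across the 8293 genes whose mean signal reached 25, and repeated control spots within an array (24 of a kind) varied by 6.30% to 13.5% (CV).

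C-type lectin receptors of this group are surface proteins with which macrophages, dendritic cells and neutrophils bind sugars and lipids of microbes and of damaged cells. Activating members pass their signal to the kinase Syk, either through the adaptors Fcer1g and Tyrobp or through a motif of their own, and Card9 then links Syk to NF-kB and to cytokine genes. Inhibitory members such as Clec4a2 and Clec12a carry a motif that recruits phosphatases. In the RefSeq gene order 9 of the 10 genes lay on chromosome 6, where Clec4a1 and Clec4a3 were direct neighbours and Clec4n, Clec4d and Clec4e followed one another with no other protein-coding gene between them, and Clec10a lay on chromosome 11. Probe sequences were not used here, and how far near copies among the Clec4a genes share signal was not tested.

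RefSeq promoter windows (GRCm38.p6) matched 8 of the 10 genes, all but Clec4n and Clec10a. The 250 bases before the start site are shown for the receptors on which the ratios below turn, Clec4a3 (chr6:122952265-122952514, plus strand, the outermost of 2 start sites), Clec4e (chr6:123289872-123290121, minus strand) and Clec5a (chr6:40585806-40586055, minus strand), and for Clec4a2 (chr6:123122440-123122689, plus strand), the inhibitory relative of Clec4a3. They read 5′ to 3′ toward the gene, and capitals mark matches to GGAAGT, a core that ETS factors such as PU.1 bind, or to TTGCNNAA, a C/EBP motif.
Clec4a3: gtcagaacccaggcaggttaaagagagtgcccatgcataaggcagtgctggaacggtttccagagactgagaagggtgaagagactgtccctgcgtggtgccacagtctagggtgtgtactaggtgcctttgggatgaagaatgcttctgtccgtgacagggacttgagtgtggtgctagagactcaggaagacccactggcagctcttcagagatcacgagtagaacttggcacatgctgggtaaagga
Clec4a2: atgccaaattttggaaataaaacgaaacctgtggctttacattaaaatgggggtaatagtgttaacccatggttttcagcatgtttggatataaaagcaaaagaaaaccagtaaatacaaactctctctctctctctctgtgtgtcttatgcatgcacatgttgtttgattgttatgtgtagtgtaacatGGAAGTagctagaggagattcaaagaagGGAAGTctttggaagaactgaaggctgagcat
Clec4e: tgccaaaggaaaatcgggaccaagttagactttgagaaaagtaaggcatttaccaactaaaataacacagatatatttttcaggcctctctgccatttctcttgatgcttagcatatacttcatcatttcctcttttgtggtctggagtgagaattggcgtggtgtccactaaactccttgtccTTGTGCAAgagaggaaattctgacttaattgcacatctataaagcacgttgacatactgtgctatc
Clec5a: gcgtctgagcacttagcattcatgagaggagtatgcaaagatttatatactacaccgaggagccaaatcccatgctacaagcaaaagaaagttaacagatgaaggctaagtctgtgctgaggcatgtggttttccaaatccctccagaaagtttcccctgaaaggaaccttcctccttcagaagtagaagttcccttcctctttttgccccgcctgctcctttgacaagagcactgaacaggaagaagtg
The motifs were searched on both strands of all 8 windows. GGAAGT was found in 2 of them, Clec4a2 (60 and 32 bases before the start) and Clec4d (35 bases before it), against 19.7% of 32851 RefSeq windows. TTGCNNAA was found in Clec4e (66 bases before the start) and Clec12a (140 bases before it), against 9.56% of windows. TGANTCA, an AP-1 motif, was found in Clec12a alone (6.75% of windows) and the motif of interferon regulatory factors (GAAA, any 2 bases, GAAA) in none (2.98% of windows). The windows of Clec4a2 and Clec4a3 were identical at a share of aligned positions within the 44.1% to 53.4% seen over all pairs of the 8 genes.

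All 10 receptors were detected on all 3 arrays. With CTLA-4-Ig set against hIgG, their median log2 ratio was -0.14, compared with 0.09 over all 15628 genes detected on all 3 arrays, and 8 of the 10 lay below 0, as did 32.0% of genes on the whole. With vehicle as the control it was -0.085 against 0.11 over all genes, with 6 below 0 (30.6% on the whole), and for hIgG over vehicle it was 0.10 against 0.03, with 4 below 0, near the 42.6% of all genes. The medians were thus on the low side of all genes in both comparisons of CTLA-4-Ig and on the high side in hIgG over vehicle. Clec4a3, whose low signal chose the group, is counted in these medians and counts, so for CTLA-4-Ig they are a description only. The CTLA-4-Ig comparisons share that array, and those with hIgG share the hIgG array, so a single array moves more than one of them. The shares of all genes below 0 depend on the scaling. For CTLA-4-Ig they were 48.7% over hIgG and 49.2% over vehicle under quantile normalization, and 49.0% and 50.1% under cyclic loess. Less the median of all genes, the receptors' medians were -0.202 and -0.165 under quantile normalization, against -0.232 and -0.192 in the deposited values.

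Few receptors were far apart between conditions. Set against hIgG, CTLA-4-Ig had 1 receptor lower by 1.5-fold or more, Clec4e (1.13% of all genes), and no receptor higher by that much (3.4% of all genes). Set against vehicle, it had 1 lower, Clec4a3, the gene for which the group was taken up (0.992% of all genes), and none higher (4.44%). Between hIgG and vehicle 2 receptors were at least 1.5-fold higher on hIgG, Clec4e and Clec5a, against 1.95% of all genes, and none was lower, against 1.6%. The other 7 stayed within 1.5-fold in every comparison of the deposited values. The CTLA-4-Ig signal was the lowest of the 3 for 6 receptors (19.2% of all genes) and the highest for 2, Clec4n and Clec7a (56.5% of all genes). Clec4a3, whose low signal chose the group, is among the 6, so that count is a description only. The hIgG signal was the highest for 5 (23.0%) and the lowest for 1 (34.9%), and the vehicle signal was the highest for 3 (20.5%) and the lowest for 3 (45.9%). These shares of all genes hold for the deposited scaling and were not computed for other scalings. Under quantile normalization and cyclic loess 7 receptors were lowest on CTLA-4-Ig.

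**Figure D1:**
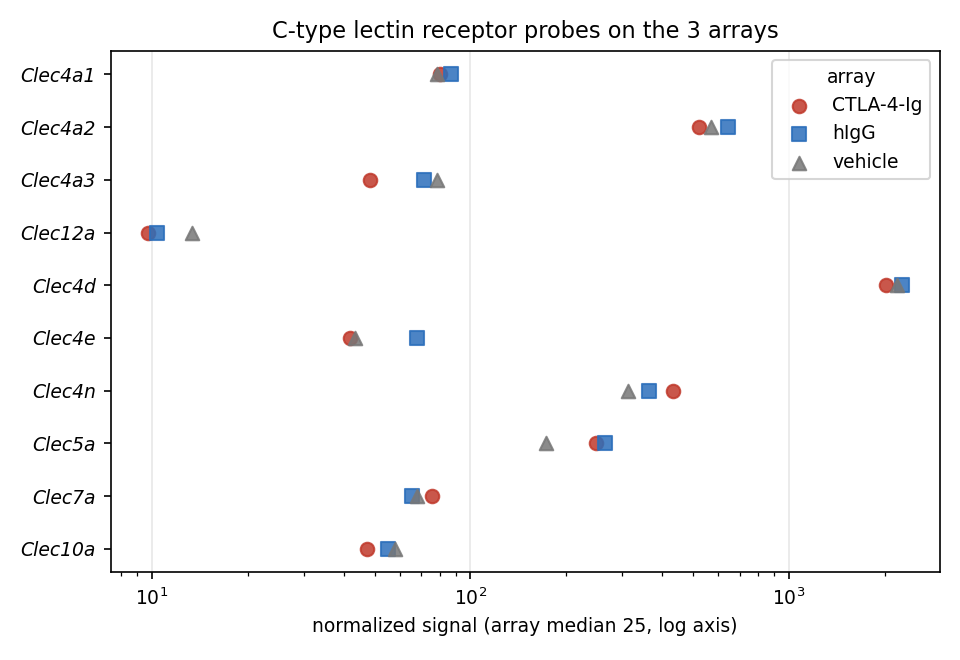
Normalized signal (log axis) of the 10 receptors after CTLA-4-Ig, after hIgG and after vehicle, 1 point per array. Clec4a3 lay at 48.5 on CTLA-4-Ig against 71.4 on hIgG and 78.6 on vehicle, while Clec4e stood out on hIgG, at 67.9, against 43.5 on vehicle.

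Among the Clec4a genes, the only one far below both controls was Clec4a3, also named Dcir3. Its normalized signal was 48.5 after CTLA-4-Ig, 71.4 after hIgG and 78.6 after vehicle, or -0.56 against hIgG and -0.70 against vehicle on the log2 scale, while hIgG over vehicle was -0.14. These values chose the group; a gene at least 0.5 log2 units below both controls was 1 receptor and 0.569% of all genes. Clec4a2, the inhibitory receptor Dcir1, gave 522 after CTLA-4-Ig, 646 after hIgG and 569 after vehicle, or -0.31 against hIgG and -0.12 against vehicle on the log2 scale. Clec4a1, another relative, gave 80.3 after CTLA-4-Ig, 87.1 after hIgG and 78.8 after vehicle, so that its CTLA-4-Ig signal lay between the controls, though below both under some other scalings (down to -0.08 against vehicle). The hIgG over vehicle ratio of both, 0.18 for Clec4a2 and 0.14 for Clec4a1, was positive where that of Clec4a3 was negative. Clec12a, an inhibitory receptor for uric acid crystals and dead cells, was dim, at 9.74 after CTLA-4-Ig, 10.4 after hIgG and 13.4 after vehicle. Against vehicle its log2 ratio was -0.46 for CTLA-4-Ig and -0.37 for hIgG, so that both Fc-bearing proteins lay below vehicle. The spots around it were low for hIgG too (a median of -0.14), and less that median its ratio for hIgG was -0.23.

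Of the receptors that signal through Fcer1g, Clec4e was apart on hIgG, Clec4n was highest after CTLA-4-Ig, and Clec4d differed little. Clec4e (Mincle), which binds mycobacterial cord factor, gave 41.8 after CTLA-4-Ig, 67.9 after hIgG and 43.5 after vehicle. Its log2 ratio was -0.70 over hIgG and -0.06 over vehicle, with 0.64 for hIgG over vehicle: the hIgG array was high and the other 2 were close together. Clec4d, its partner in a shared receptor complex, gave 2018 after CTLA-4-Ig, 2266 after hIgG and 2180 after vehicle, or -0.17 against hIgG and -0.11 against vehicle (log2). Clec4n (Dectin-2), a receptor for fungal mannans, gave 431 after CTLA-4-Ig, 364 after hIgG and 313 after vehicle, or 0.24 against hIgG and 0.46 against vehicle (log2). The 3 genes lie side by side on the chromosome, and their ratios over hIgG ranged from -0.70 to 0.24.

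Clec5a (MDL-1), which signals through Tyrobp, gave 248 after CTLA-4-Ig, 265 after hIgG and 172 after vehicle, so that it was high after both Fc-bearing proteins. Its log2 ratio to vehicle was 0.53 for CTLA-4-Ig and 0.62 for hIgG, and CTLA-4-Ig over hIgG was -0.09. The spots around Clec5a were high for CTLA-4-Ig against vehicle too (a median of 0.469). Less the medians of those spots, its ratio to vehicle was 0.058 for CTLA-4-Ig and 0.475 for hIgG. Tyrobp itself gave 2605 after CTLA-4-Ig, 3129 after hIgG and 2463 after vehicle. Clec7a (Dectin-1), the receptor for fungal beta-glucan, which carries its own signalling motif, gave 76.0 after CTLA-4-Ig, 65.7 after hIgG and 68.0 after vehicle. Its log2 ratios of 0.21 and 0.16 over hIgG and vehicle were near the SD of the 2 controls against each other. Clec10a (Mgl1), which binds galactose-type sugars and is taken up with its cargo, gave 47.2 after CTLA-4-Ig, 55.1 after hIgG and 57.8 after vehicle, log2 ratios of -0.22 and -0.29.

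**Figure D2:**
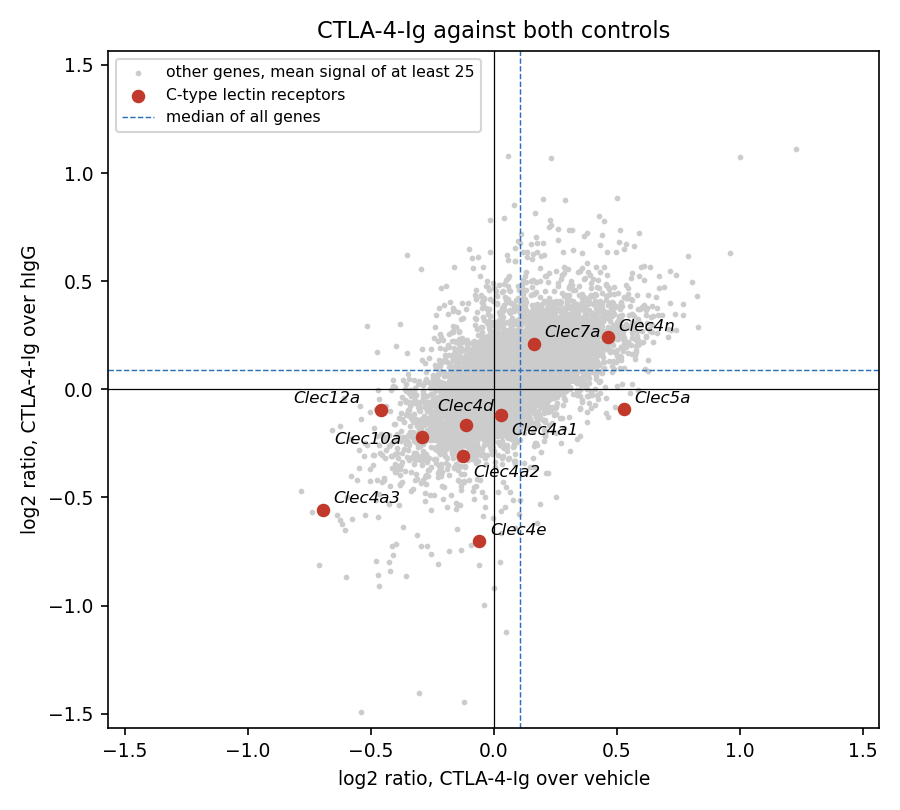
Log2 ratio to vehicle (x axis) and to hIgG (y axis) of the CTLA-4-Ig signal, with all 10 receptors in red, other genes whose mean signal reached 25 in grey and the medians of all genes as dashed lines. Clec4a3 lies low on both axes (-0.70 on x and -0.56 on y), Clec4e on the y axis only (-0.70, with -0.06 on x), and Clec5a lies high on the x axis only (0.53, with -0.09 on y).

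Ratios followed the place of a spot on the array. For 9675 probes whose mean signal reached 25, the log2 ratio correlated with the median of the spots within 5 columns and 5 rows in the same block with a Pearson r of 0.515 (CTLA-4-Ig over hIgG), 0.639 (CTLA-4-Ig over vehicle) and 0.377 (hIgG over vehicle), as a description across probes that share 3 arrays. The block medians ranged from -0.11 to 0.21, from -0.02 to 0.34 and from -0.11 to 0.12 in the same order. The spot of Clec4a3, in the first row of block 21, lay among 28 spots whose own median was -0.19 over hIgG and -0.31 over vehicle, and only 0.744% and 0.269% of probes had a lower surrounding median. Less that median, Clec4a3 was -0.37 over hIgG and -0.39 over vehicle. With surrounding medians subtracted from all, 30 genes of 8293 lay as low as Clec4a3 against both controls, compared with 2 in the deposited values. Such counts include the receptor itself, and the low signal of Clec4a3 chose the group. On the same scale 6 genes lay as low as Clec4e, compared with 22 in the deposited values, and 28 as low as Clec10a, compared with 121. Clec5a lay among 37 spots whose median for CTLA-4-Ig against vehicle was 0.47, and less that median its ratio was 0.06 instead of 0.53, while its hIgG over vehicle ratio was 0.48 instead of 0.62. Against hIgG the spots around it had a median of 0.30, and less that median the Clec5a ratio of CTLA-4-Ig was -0.40 instead of -0.09. Clec4n lay among spots with medians of 0.23 against hIgG and 0.28 against vehicle, and less these it was 0.01 instead of 0.24 and 0.19 instead of 0.46. The spots around Clec4e lay the other way (0.21 over hIgG), and less their median it was -0.91 over hIgG. Over the 10 receptors, Clec4a3 among them, the median less surroundings was -0.27 over hIgG, with 8 below 0, and -0.24 over vehicle, with 7 below 0. On that scale all genes had medians of 0.01 and 0.02, with 46.7% below 0 in each comparison. What the place of a spot contributed to these ratios was not tested. Another background correction (normexp) was tried, with a background column that tracks the spots themselves (r of 0.978 to 0.994). Its signals were already on a log scale when the log2 ratio was taken, which pulls ratios toward 0. On that scale Clec4a3 lay at 0.04 against each control and Clec4e at 0.002 against hIgG. These values are no log2 ratios of signal, and no conclusion is drawn from them.

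**Figure D3:**
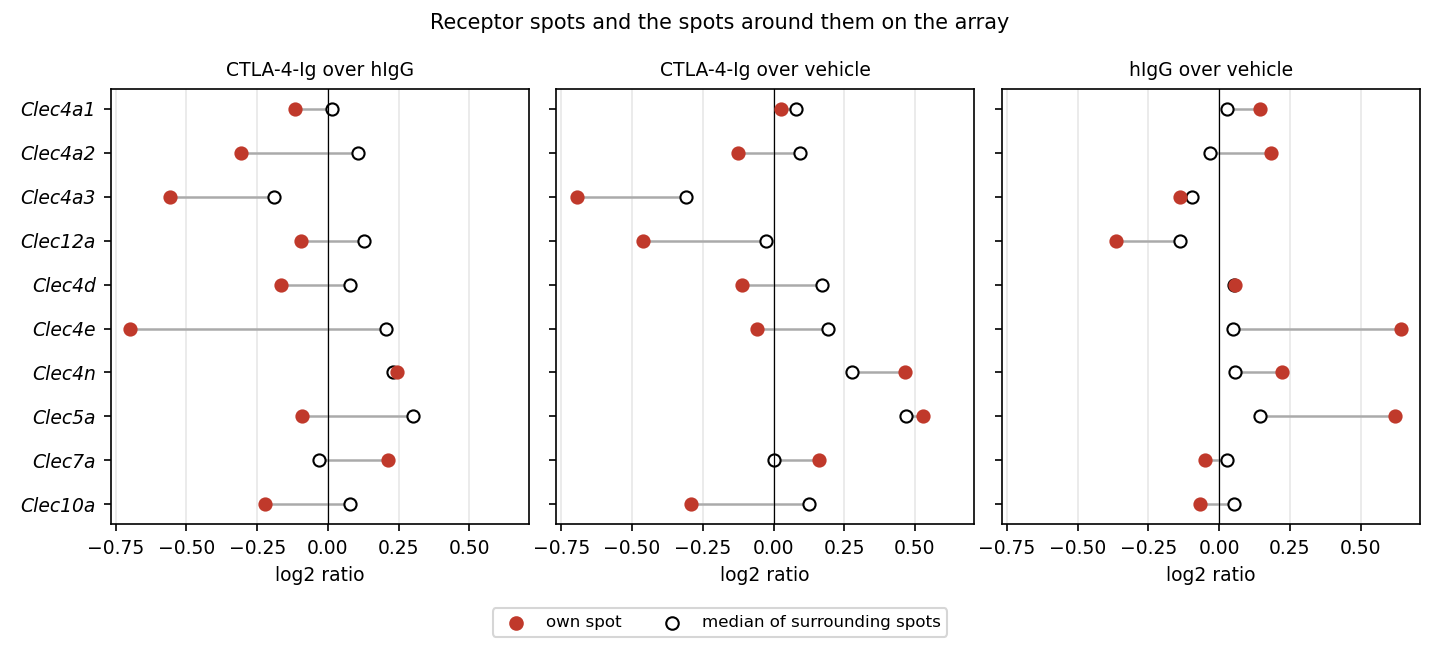
Log2 ratio of each receptor's own spot (filled) and the median of the spots around it (open), with 1 panel each, from left to right, comparing CTLA-4-Ig with hIgG, CTLA-4-Ig with vehicle, and hIgG with vehicle. For Clec4a3 both points lie left of 0 in the first and the second panel, and for Clec5a both lie near 0.5 in the second.

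The genes whose pair of log2 ratios lay nearest that of Clec4a3, among 8293 genes, were Gm20091 (distance 0.05), Lars2 (0.06), Abcb4 (0.09), Rfk (0.10) and Atm (0.12). Gm20091 and Abcb4 lay in block 21, as Clec4a3 did. The spots around Gm20091 had medians of -0.21 over hIgG and -0.31 over vehicle, those around Abcb4 of -0.085 and -0.045, those around Atm of -0.26 and -0.33, and those around Lars2, which stood in block 20, of 0.11 and 0.10. For Rfk 2 probes disagreed, at 0.00 and -0.08 for one and -1.25 and -1.16 for the other.

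The medians of other lectins and of the signalling genes lay near those of all genes. Of 46 other C-type lectins on the array 31 were detected on all 3, and their median log2 ratio was 0.08 against hIgG and 0.11 against vehicle. Among them Cd69, an early activation antigen, was lower after CTLA-4-Ig by more than 1.5-fold against both controls, but at dim signals (2.55 after CTLA-4-Ig, 5.5 after hIgG and 4.0 after vehicle). Clec3a and Cd209g, just as dim, were higher after CTLA-4-Ig by 1.5-fold or more against vehicle, Clec3a at 5.26 after CTLA-4-Ig, 3.9 after hIgG and 3.5 after vehicle, and Cd209g at 6.06 after CTLA-4-Ig, 5.6 after hIgG and 3.7 after vehicle. Mrc1, the mannose receptor, gave 593 after CTLA-4-Ig, 621 after hIgG and 547 after vehicle. Clec4a4 and Clec4b1 lie between Clec4a3 and Clec4a2, and Clec4b2 lies between Clec4a2 and Clec4n. Clec4a4 and Clec4b2 were detected on no array. Clec4b1 was detected on all 3 but dim, at 1.96 after CTLA-4-Ig, 1.6 after hIgG and 2.6 after vehicle. Of 19 measured signalling genes 0 were 1.5-fold apart after CTLA-4-Ig, where 1.13% of all genes were lower and 3.4% higher against hIgG, and 0.992% lower and 4.44% higher against vehicle. That count is near those shares for a list of this size, and their medians were 0.05 over hIgG and 0.08 over vehicle. Fcer1g, the adaptor of Clec4d, Clec4e and Clec4n, gave 3747 after CTLA-4-Ig, 4157 after hIgG and 3947 after vehicle, and Syk gave 41.8 after CTLA-4-Ig, 39.4 after hIgG and 40.9 after vehicle. The highest and the lowest over hIgG were Ptpn11, a phosphatase (0.35), and Plcg2, a phospholipase downstream of Syk (-0.37).

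Among 15 detected target cytokines, Tnf gave 20.6 after CTLA-4-Ig, 31.1 after hIgG and 23.1 after vehicle, low against hIgG only as Clec4e was. Cxcl2, a neutrophil chemokine, ran the other way, at 55.4 after CTLA-4-Ig, 32.0 after hIgG and 53.9 after vehicle. Csf3, a neutrophil growth factor, was near the detection limit, at 1.62 after CTLA-4-Ig, 1.7 after hIgG and 1.0 after vehicle. Of the 14 macrophage markers 3 were lower by 1.5-fold or more after CTLA-4-Ig when set against hIgG (1.13% of all genes). Against vehicle 0 were (0.992% of all genes). Fcgr1, a high-affinity receptor for IgG, gave 235 after CTLA-4-Ig, 408 after hIgG and 231 after vehicle. Cx3cr1, the fractalkine receptor, gave 48.2 after CTLA-4-Ig, 79.4 after hIgG and 51.5 after vehicle, so that both were high on hIgG, as Clec4e was. Cd163, a scavenger receptor, was dim and gave 6.07 after CTLA-4-Ig, 9.6 after hIgG and 8.8 after vehicle. Markers of dendritic cells, neutrophils, T cells, B cells, endothelium and synoviocytes that were 1.5-fold apart after CTLA-4-Ig were all higher. Against hIgG these were the dendritic cell marker Itgax, at 38.2 after CTLA-4-Ig, 22.9 after hIgG and 30.9 after vehicle, and the T cell marker Cd2, at 17.5 after CTLA-4-Ig, 10.4 after hIgG and 15.9 after vehicle. Against vehicle they were dim, namely Ngp (neutrophils, log2 ratio 0.61), Cd4 (T cells, 0.59) and Cd79a (B cells, 0.70). Ly6g, a brighter neutrophil marker, lay the other way, just short of 1.5-fold against vehicle (log2 ratio -0.581). It gave 33.9 after CTLA-4-Ig, 44.8 after hIgG and 50.7 after vehicle. The median of the macrophage markers lay on the same side of all genes as that of the receptors in each comparison. For CTLA-4-Ig it was -0.038 against hIgG (all genes 0.089) and 0.044 against vehicle (all genes 0.107). Of the 14 markers, 10 and 8 lay below those values of all genes. When hIgG was set against vehicle it was 0.124 (all genes 0.026), with 2 markers below the value of all genes. The summed signal of the macrophage markers, mostly that of Lyz2, was 39820 after CTLA-4-Ig, 36860 after hIgG and 34330 after vehicle. That of the synoviocyte markers was 18910, 17290 and 18640 in the same order. The part of these markers in the receptors' ratios was not tested.

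**Figure D4:**
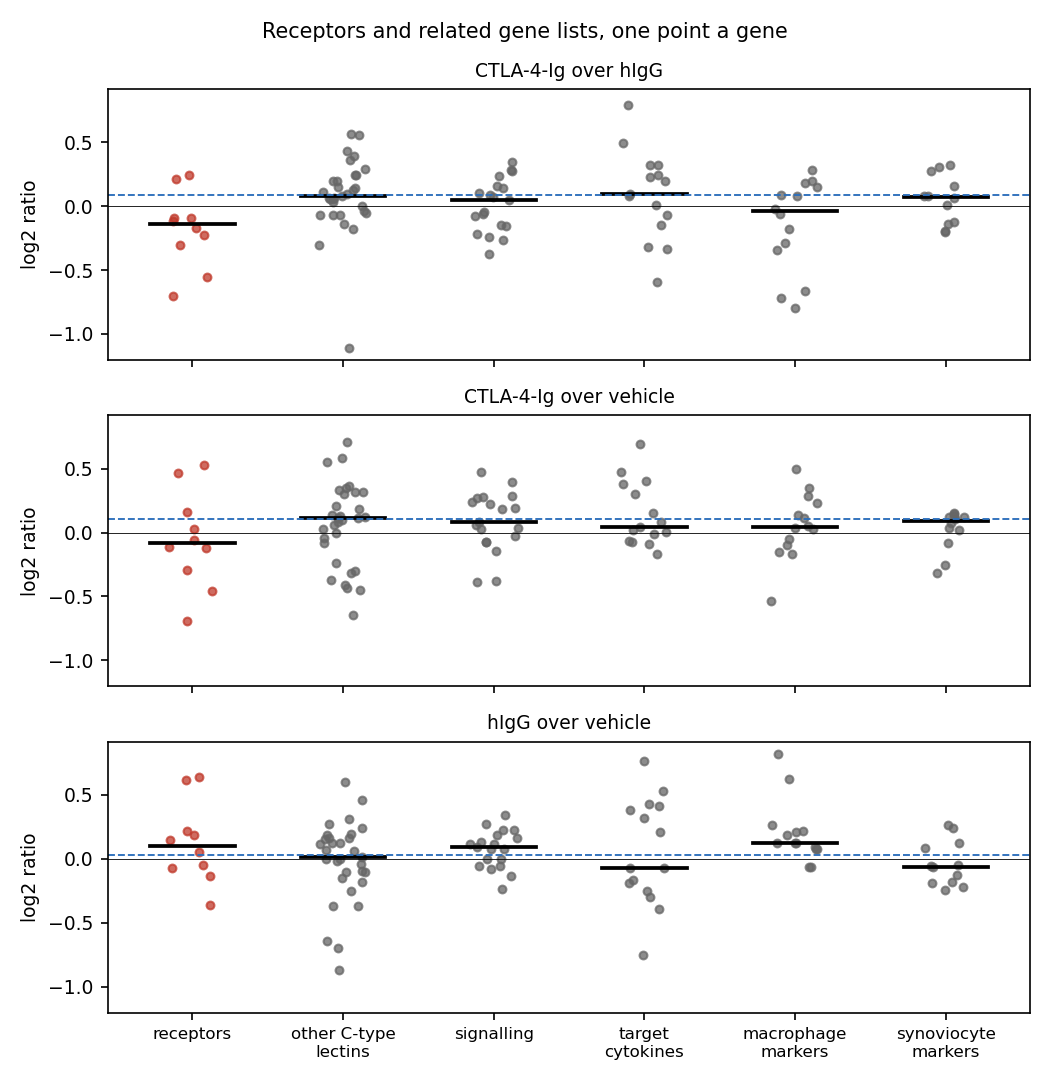
Log2 ratios of the receptors and of the other gene lists, 1 point per detected gene, with a black line at each list's median and a dashed line at the median of all genes. The receptors' median for CTLA-4-Ig lies at -0.14 against hIgG and at -0.085 against vehicle.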

How the data were processed

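RNA of the 3 cultures was hybridised by the authors to 1-colour Toray 3D-Gene mouse oligo chips, 1 per condition. The deposited table holds linear normalized intensity per probe: the authors subtracted the mean of blank spots, left undetected probes empty and scaled each array to a median of 25. The scanner files hold spot intensity, as deposited, and rebuilding the table from them (blanks without 5% at each end, detection above the mean plus 2 SD) gave the same detected probes. Of 23473 probes 20690 had 1 gene symbol in the platform annotation and 2783 had several or none; 20556 were matched by gene ID to RefSeq. A gene's log2 signals were averaged over its probes detected on all 3 arrays, and ratios and 1.5-fold counts were computed in Python 3.11.15 (pandas 2.3.3, numpy 2.4.6). The counting was run on simulated arrays whose noise did not depend on the place of a spot. That run checked the counting only, and not how often such ratios arise on these arrays. limma 3.58.1 gave the quantile, cyclic loess and normexp alternatives. With 1 array per condition no p-value was computed. The receptors and lists were chosen with earlier results of these data known. Named were all 10 receptors and the 5 genes nearest Clec4a3. List genes were named where CTLA-4-Ig lay at least 1.5-fold from a control (at most 6 per direction). Failing that, the extremes were named, for the signalling genes only. A few list genes (Mrc1, Fcer1g, Tyrobp, Syk, Lyz2, Clec4b1, Ly6g) were added after their values were seen. Titles give the dose as 100 µg, and the treatment notes give another unit. The aligned genome build of the probes is not given in the sources used here.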

Additional observations from a re-analysis of the deposited data

How the results depend on the processing

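No paired analysis was possible because there was a single array per condition. Each receptor has 1 probe detected on all 3 arrays, so 3 settings (brightest probe, floor for undetected probes, minimum signal) could not move a single ratio. Under the other 7, normexp among them, 183 of 210 single ratios moved by less than 0.17 log2 units, the SD between the controls. The 210 include 30 normexp values, of which 14 moved and 4 more took the opposite sign. Rebuilding the table repeats the deposited values, and scaling a whole array shifts all ratios of a comparison alike. The count of 183 is thus no test of how stable the ratios are. Normexp with an offset of 50 turned the sign of 21 of 30 single ratios and left all within 0.044 of 0. Its signals were already on a log scale when the log2 ratio was taken, which pulls ratios toward 0. The normexp values given here are thus no log2 ratios of signal, and no conclusion is drawn from them. On that scale normexp gave the opposite sign to 4 ratios at least 1.5-fold apart in the deposited values. These were Clec4e over hIgG (0.002), Clec4a3 over vehicle (0.044), and Clec4e (-0.009) and Clec5a (-0.029) for hIgG over vehicle. On the same scale it put the medians at 0.017 over hIgG and -0.009 for hIgG over vehicle, left 0 receptors 1.5-fold apart and 2 lowest on CTLA-4-Ig. The scanner's background column which it subtracts followed the spots themselves (r of 0.978 to 0.994 on the log2 scale) and had a median of 0.936 to 0.965 of the spot. Quantile normalization and cyclic loess each counted 2 receptors 1.5-fold lower over hIgG, Clec4e and Clec4a3, and 2 over vehicle, Clec4a3 and Clec12a. The dim Clec12a stood at -0.602 and -0.617 over vehicle in that order. Scaling by the median of probes detected on all 3 arrays counted 2 over hIgG, again Clec4e and Clec4a3. Its medians were -0.247 over hIgG and -0.189 over vehicle. Clec4a3 is the gene whose low signal chose the group. At 2-fold 0 receptors were counted in each comparison. Subtracting the surrounding spots, an alternative chosen after seeing the data, gave medians of -0.272 and -0.235, 0 receptors 1.5-fold lower over vehicle and 1 higher for hIgG over vehicle, and moved 9 single ratios. In the deposited values and the other 5 settings Clec4a3 stayed between -0.661 and -0.556 over hIgG and between -0.800 and -0.694 over vehicle, Clec4e between -0.805 and -0.701 over hIgG, while Clec4a1 over vehicle lay on both sides of 0 (-0.077 to 0.028). Clec12a was left out where a mean signal of 25 was asked. The cause of the other changes was not tested.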
